A study of Mus musculus with 15 samples.

Results

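The transcripts of Tet1, Tet2 and Tet3, the dioxygenases that oxidise 5-methylcytosine, and of 6 enzymes that make, use or limit their co-substrate 2-oxoglutarate were compared between libraries labelled neurons, astrocytes and microglia of the mouse cortex. The 9 genes were chosen by name (Tet1, Tet2, Tet3, Idh1, Idh2, Idh3a, Ogdh, Fh1 and D2hgdh) from the 20610 genes of the deposited table. Each name matched 1 row. All 9 genes had at least 1 TPM (a relative RNA level corrected for transcript length, with the same total in every library) in at least 5 libraries, as had the 13351 genes that were tested. Cells were isolated magnetically from cortices of WT male mice at P28, and polyA RNA was sequenced from 5 libraries of neurons, 5 of astrocytes and 5 of microglia. All 3 groups share this genotype, sex, age and tissue, and the labels name no treatment. The labels tie no library to an animal and do not say whether animals were pooled, so the p-values measure the spread between libraries, which may be technical. The labels give an average of 30000000 reads of 150 nt; depth per library cannot be read from TPM, so differences are given with the spread over the libraries.

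Tet enzymes turn 5-methylcytosine into 5-hydroxymethylcytosine and further oxidised bases, using iron, oxygen and 2-oxoglutarate and releasing succinate, and 5-hydroxymethylcytosine is known for its high level in brain. Idh1 in the cytosol and Idh2 in mitochondria make 2-oxoglutarate from isocitrate with NADP, and the Idh3 complex does so with NAD as a step of the citric acid cycle. Ogdh, Fh1 and D2hgdh act on 2-oxoglutarate, on fumarate and on D-2-hydroxyglutarate, and succinate, fumarate and 2-hydroxyglutarate can inhibit enzymes of the Tet class.

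The libraries labelled neurons went against their label in their markers, while those of astrocytes and microglia held high sums of their own. In summed TPM, 10 microglia markers reached 70753 to 109581 in microglia and 77.2 to 137 and 169 to 235 in neurons and astrocytes, and 10 astrocyte markers reached 19202 to 22836 in astrocytes against 143 to 282 and 273 to 644 in neurons and microglia. The 10 pan-neuronal markers summed to 909.7 to 2099 TPM in neurons, 179.7 to 327 in astrocytes and 18.4 to 129.98 in microglia. In every library labelled neurons that sum was below that of 8 mural markers and far below that of 10 endothelial markers. The mural sums were 2389.5 to 4522 TPM in neurons, 1524 to 2201 in astrocytes and 88.4 to 218 in microglia. The endothelial sums were 27128 to 39649.5 TPM in neurons, 1865 to 2471 in astrocytes and 329.8 to 704 in microglia, where Cdh5 and Kdr averaged under 1 TPM. Neurons below stands for the libraries so labelled, and of the 3 comparisons that of astrocytes with microglia alone compares none of them. The 8 mature oligodendrocyte markers summed to 69316 and 51375 TPM in microglia libraries 1 and 2 and to 248 to 8108 TPM in the other microglia libraries, and to 119 to 10275 TPM in neurons, where libraries 1 and 2 were above their pan-neuronal sums. The part of these cells in the levels below was not tested, and in such bulk samples fewer cells of a type and less RNA per cell cannot be told apart.

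The 9 genes differed between the cell types mainly in the isocitrate dehydrogenases and Fh1, while the Tet genes and Ogdh were called in no comparison. A gene was called when its adjusted p was below 0.05 (limma, Benjamini-Hochberg over all tested genes) and its difference in log2(TPM + 1) at least 1, which is 2-fold on a scale that understates changes of low genes. Between neurons and astrocytes 4 of the 9 were called, all higher in astrocytes (Idh1, Idh2, Idh3a and Fh1), where 25.6% of all tested genes were called and 12.7% were higher in astrocytes. Between neurons and microglia 2 were called, Idh3a higher in neurons and Idh2 higher in microglia, against 39.3% of all tested genes (29.5% higher in neurons and 9.74% in microglia). With median-of-ratios scaling or quantile normalization the 2 called there were instead Idh2 and D2hgdh, both higher in microglia. Between astrocytes and microglia 3 were called, all higher in astrocytes (Idh1, Idh3a and Fh1), against 42.5% of all tested genes and 32.3% in that direction. Idh1, Idh3a and Fh1 were thus called higher in astrocytes than in both other cell types, as were 10.2% of all tested genes. The groups did not overlap for 5 of the 9 between neurons and astrocytes (39% of all tested genes), 4 between neurons and microglia (54.3%) and 4 between astrocytes and microglia (58.4%). Groups that share an equal value, as Tet1 in astrocytes and microglia, were counted as overlapping. The 3 comparisons share libraries in pairs. The median log2 difference of all tested genes was -0.029 for neurons minus astrocytes, 0.48 for neurons minus microglia and 0.57 for astrocytes minus microglia. Median-of-ratios scaling, which sets each library by the median ratio of its genes to their average over libraries, moved these medians by 0.060, -0.51 and -0.54, and it took the share of called genes that were higher in neurons than microglia from 75.2% to 55.8% and higher in astrocytes than microglia from 76.0% to 53.4%. Differences from microglia are therefore given below with that scaling as well where it changed a call of the 9 genes or of a list gene described, or a direction among the 9, and the counts of each list are given on both scales.

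**Figure D1:**
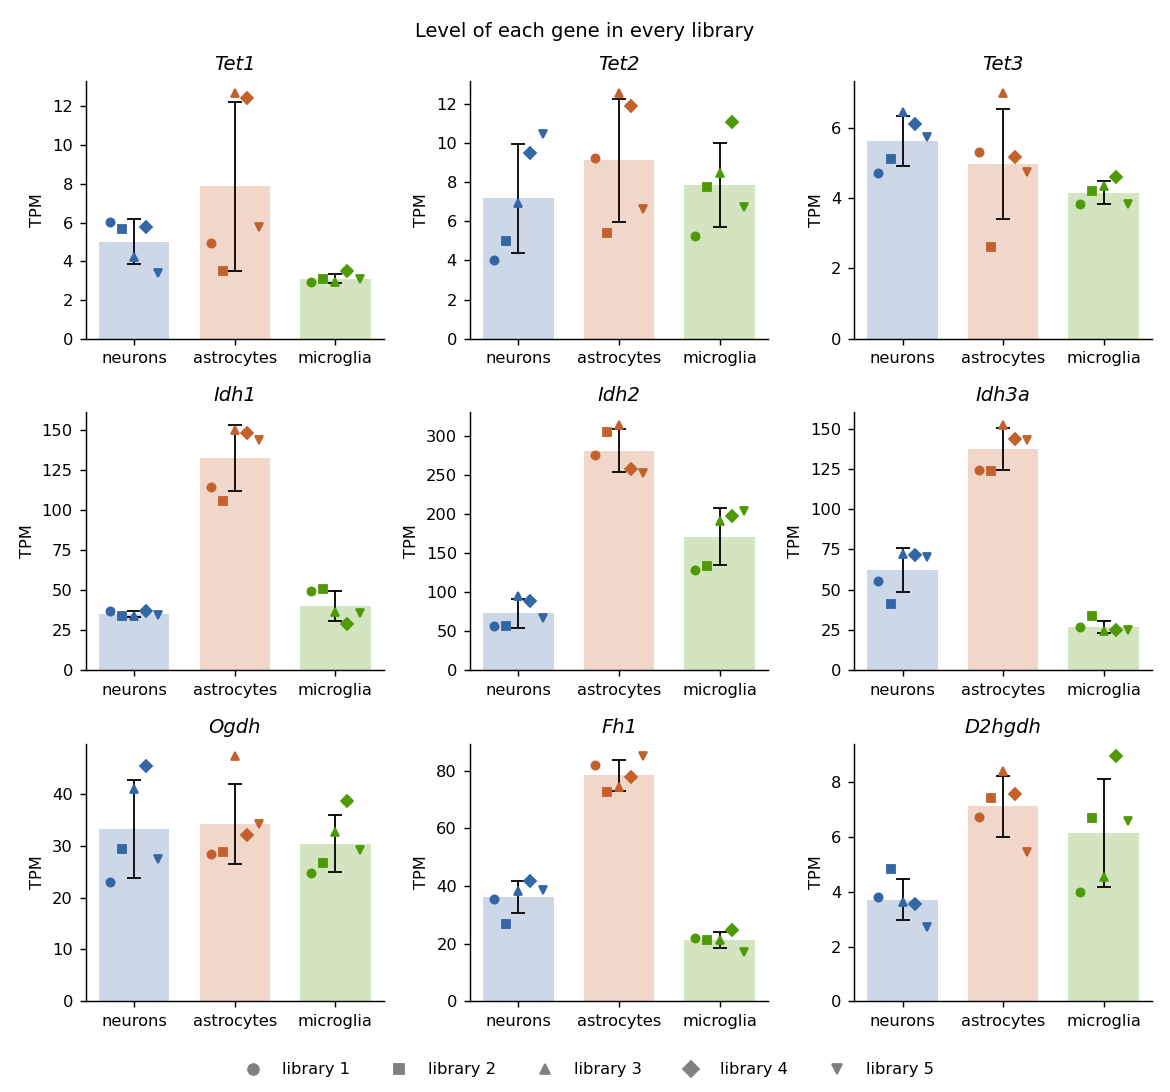
TPM of the 9 genes (vertical axes, one scale per panel) in each of the 5 libraries of neurons, astrocytes and microglia; bars are means, error bars are SD, and the shape of a point gives the library number. Idh1, Idh2, Idh3a and Fh1 are higher in every astrocyte library than in any neuron or microglia library, and Tet1 is highest in astrocyte libraries 3 and 4, at 12.67 and 12.43 TPM.

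The Tet genes were all at low levels and none was called by the rule above with all libraries. Only Tet1 between astrocytes and microglia had an unadjusted p below 0.05 in limma. Tet1 (ENSMUSG00000047146, chr10:62804570-62908996, minus strand, mm10), which carries a CXXC zinc finger that binds CpG-rich DNA, was at 6.05, 5.66, 4.22, 5.75 and 3.39 TPM in neuron libraries 1 to 5. Astrocyte libraries 1 to 5 held 4.94, 3.49, 12.67, 12.43 and 5.78 TPM. Microglia libraries 1 to 5 held 2.95, 3.06, 2.92, 3.49 and 3.07 TPM. Astrocyte libraries 3 and 4 stood far above the other astrocyte libraries, and microglia were low and close together. Neurons overlapped both other groups. Astrocytes and microglia only touched, at 3.49 TPM in astrocyte library 2 and microglia library 4. Neurons averaged 5.01 ± 1.15 TPM, astrocytes 7.86 ± 4.36 and microglia 3.10 ± 0.229 (mean ± SD, n = 5). For astrocytes minus microglia the log2 difference was 0.97 ± 0.27 (SE, adjusted p = 0.00334), just under the 2-fold limit, and 0.40 with median-of-ratios scaling (adjusted p = 0.125). It passed the limit with a pseudocount of 0.1 (1.14) and without any one of astrocyte libraries 1, 2 and 5 or microglia library 4 (up to 1.18), and of the values without 1 library it was lowest without astrocyte library 3 (0.78). Without all libraries numbered 1 and 2 it was 1.37 (adjusted p = 0.00116), which is called, and without those numbered 3 and 4 it was 0.49 (adjusted p = 0.0838). For neurons minus astrocytes the log2 difference was -0.44 (adjusted p = 0.173) and moved with the same libraries: without all libraries numbered 3 and 4 it was 0.063 (adjusted p = 0.846), and without those numbered 1 and 2 it was -1.003 (adjusted p = 0.0114), which is also called. For neurons minus microglia the log2 difference was 0.53 (95% interval -0.027 to 1.09, adjusted p = 0.0842).

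Tet2 (ENSMUSG00000040943, chr3:133463679-133545139, minus strand), which lacks a CXXC domain of its own, had the highest mean of the Tet genes in each cell type. Neurons held 4.04, 4.97, 6.95, 9.48 and 10.46 TPM. In astrocytes it was at 9.22, 5.38, 12.53, 11.86 and 6.6 TPM. Microglia held 5.26, 7.77, 8.47, 11.05 and 6.72 TPM. The 3 groups overlapped throughout, with means of 7.18 ± 2.78, 9.12 ± 3.14 and 7.85 ± 2.16 TPM. Set against astrocytes, neurons differed by -0.32 (95% interval -0.87 to 0.23, adjusted p = 0.322). Set against microglia, neurons differed by -0.15 (-0.70 to 0.40, adjusted p = 0.626) and -0.70 with median-of-ratios scaling (adjusted p = 0.00692). Set against microglia, astrocytes differed by 0.17 (-0.38 to 0.72, adjusted p = 0.577), and with that scaling its direction turned, to -0.45. The intervals do not show equal levels.

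Tet3 (ENSMUSG00000034832, chr6:83362373-83459084, minus strand), the member known for oxidising the paternal genome in the zygote, was at 4.71, 5.11, 6.45, 6.1 and 5.75 TPM in neurons. Astrocytes held 5.32, 2.6, 6.98, 5.18 and 4.75 TPM. In microglia it was at 3.82, 4.19, 4.34, 4.59 and 3.84 TPM. Every neuron library lay above every microglia library, by a narrow gap, and astrocytes overlapped both. Means were 5.62 ± 0.711 (neurons), 4.97 ± 1.57 (astrocytes) and 4.16 ± 0.330 TPM (microglia). Neurons minus microglia was 0.36 ± 0.18 (SE, adjusted p = 0.0914) and turned to -0.16 with median-of-ratios scaling. Astrocytes minus microglia was 0.17 (adjusted p = 0.419) and turned to -0.41 with that scaling (adjusted p = 0.00973). Neurons minus astrocytes was 0.19 (95% interval -0.19 to 0.57, adjusted p = 0.398).

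The mix of Tet transcripts within a library does not depend on its scaling, and it is described here with no test. The summed TPM of the 3 genes was 14.8 to 21.3 in neurons, 11.5 to 32.2 in astrocytes and 12.03 to 19.1 in microglia. Tet1 made up 17.3 to 40.9% of that sum in neurons, 25.4 to 42.2% in astrocytes and 18.2 to 24.5% in microglia, so its share was lower in every microglia library than in any astrocyte library. Tet2 made up 27.3 to 53.4%, 38.5 to 47.3% and 43.7 to 57.8% in the same order, with overlap. Tet3 made up 28.6 to 36.6% in neurons, above all astrocyte libraries (17.6 to 27.7%), and 24.0 to 31.8% in microglia.

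**Figure D2:**
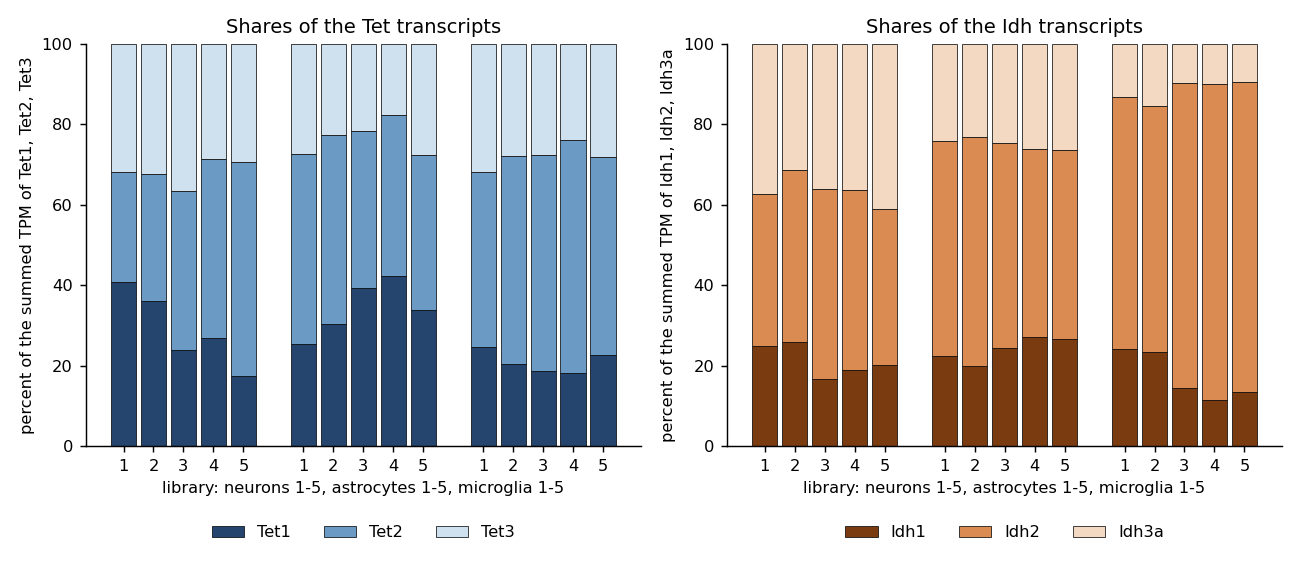
Share, in percent, of each transcript in the summed TPM of Tet1, Tet2 and Tet3 and of Idh1, Idh2 and Idh3a, as one stacked bar for each of the 15 libraries. Tet1 is a smaller share in every microglia library than in any astrocyte library, and Idh3a takes 31.4 to 41.0% of the Idh sum in neurons, 23.2 to 26.5% in astrocytes and 9.40 to 15.4% in microglia.

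Among 14 genes of Tet partners, readers of oxidised cytosine and repair enzymes, 12 were tested. Between neurons and astrocytes 0 were called higher in neurons and 1 in astrocytes, between neurons and microglia 2 in neurons and 1 in microglia, and between astrocytes and microglia 5 in astrocytes and 0 in microglia. The list's median differences were 0.029, 0.47 and 0.44 for neurons minus astrocytes, neurons minus microglia and astrocytes minus microglia, the order kept for the lists that follow. Those of all tested genes are given above. Of all tested genes 12.9% and 12.7% were called higher in neurons and in astrocytes in the first comparison. In the second 29.5% and 9.74% were called higher in neurons and in microglia, and in the third 32.3% and 10.2% in astrocytes and in microglia. On the median-of-ratios scale the list's counts were 1 and 1 between neurons and microglia and 0 and 1 between astrocytes and microglia, in the same order. List genes are given as mean ± SD over 5 libraries. Cxxc5, a CXXC zinc finger protein that binds Tet2, was at 15.7 ± 3.11, 35.2 ± 8.06 and 69.3 ± 15.6 TPM in the order neurons, astrocytes, microglia, and was called lower in neurons than in both others (-1.11 and -2.07), and with that scaling also lower in astrocytes than microglia (from -0.96 to -1.64). Its relative Cxxc4, also known as Idax, was at 1.37 ± 0.977, 1.81 ± 0.414 and 0.254 ± 0.261 TPM in that order, called between astrocytes and microglia (1.17, scaled 0.92 and not called). Tdg, the glycosylase that removes the later oxidation products, was at 16.4 ± 3.96, 19.9 ± 5.36 and 6.76 ± 0.741 TPM and was called higher in neurons (1.14) and astrocytes (1.40) than in microglia, both calls being lost with that scaling (0.58 and 0.77). The glycosylase Neil3 was at 2.73 ± 0.896, 1.29 ± 0.440 and 0.122 ± 0.0740 TPM and was called in the same 2 comparisons (1.70 and 1.01), of which the second was lost (0.82). Of the vitamin C transporters, whose cargo keeps the iron of the Tet enzymes reduced, Slc23a2 was at 33.7 ± 9.005, 26.0 ± 9.71 and 14.5 ± 2.15 TPM, called higher in neurons than microglia (1.14, scaled 0.55 and not called), and Slc23a1 was under the filter, with means of at most 0.502 TPM.

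Both NADP-dependent isocitrate dehydrogenases had their highest mean in astrocytes, while neurons and microglia overlapped for Idh1 and not for Idh2. Idh1 (ENSMUSG00000025950, chr1:65158616-65186500, minus strand), the cytosolic enzyme, was at 37.09, 33.61, 33.53, 37.11 and 34.35 TPM in neurons. Astrocytes held 114.53, 105.68, 150.46, 148.51 and 143.99 TPM. In microglia it was at 49.26, 50.58, 36.44, 29.08 and 35.54 TPM. Every astrocyte library lay above every other library, and neurons and microglia overlapped. Means were 35.1 ± 1.82 (neurons), 133 ± 20.9 (astrocytes) and 40.2 ± 9.35 TPM (microglia). For neurons minus astrocytes the log2 difference was -1.87 ± 0.15 (SE, 3.66-fold lower, adjusted p = 1.31e-08). For astrocytes minus microglia the log2 difference was 1.71 ± 0.15 (3.28-fold higher, adjusted p = 1.47e-08), and 1.03 with median-of-ratios scaling, still called (adjusted p = 1.42e-05). For neurons minus microglia the log2 difference was -0.16 (95% interval -0.48 to 0.16, adjusted p = 0.364), and -0.76 with median-of-ratios scaling (adjusted p = 0.000318). Microglia libraries 1 and 2, with the highest Idh1 among microglia, were also those with the highest oligodendrocyte sums, and without them the difference was 0.064 (adjusted p = 0.721).

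Idh2 (ENSMUSG00000030541, chr7:80094846-80115392, minus strand), the mitochondrial enzyme, had the highest mean level of the 9 genes in each cell type. Neurons held 56.05, 55.95, 94.79, 88.56 and 66.42 TPM. Astrocytes held 275.06, 304.58, 314.28, 256.94 and 252.83 TPM. Microglia held 128.63, 133.08, 190.41, 197.78 and 203.23 TPM. The groups stood apart without overlap, neurons lowest, microglia between and astrocytes highest. Means were 72.4 ± 18.3 (neurons), 281 ± 27.7 (astrocytes) and 171 ± 36.6 TPM (microglia). Set against astrocytes, neurons differed by -1.97 ± 0.17 (SE, 3.92-fold lower, adjusted p = 3.25e-08). Set against microglia, neurons differed by -1.23 ± 0.17 (2.35-fold lower, adjusted p = 5.27e-06). Set against microglia, astrocytes differed by 0.74 ± 0.17 (adjusted p = 0.000965), not called, and 0.051 with median-of-ratios scaling (adjusted p = 0.779).

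Idh3a (ENSMUSG00000032279, chr9:54586334-54604661, plus strand), the catalytic subunit of the NAD-dependent complex, showed another order: astrocytes, then neurons, then microglia. It was at 55.36, 40.92, 72.03, 71.49 and 69.96 TPM in neurons. Astrocytes held 124.08, 123.59, 152.62, 143.8 and 142.86 TPM. Microglia held 26.81, 33.44, 24.24, 25.1 and 24.76 TPM. No group overlapped another. Means were 62.0 ± 13.6 (neurons), 137 ± 12.9 (astrocytes) and 26.9 ± 3.80 TPM (microglia). Astrocytes minus microglia was 2.32 ± 0.15 (SE, 4.98-fold higher, adjusted p = 2.56e-10), and 1.64 with median-of-ratios scaling, still called (adjusted p = 1.28e-09). Neurons minus astrocytes was -1.16 ± 0.15 (2.24-fold lower, adjusted p = 4.96e-06). Neurons minus microglia was 1.15 ± 0.15 (2.23-fold higher, adjusted p = 2.75e-06). The last came under the 2-fold limit with median-of-ratios scaling (0.55, adjusted p = 0.000288), with quantile normalization, which gives every library the same distribution of values (0.83), and without all libraries numbered 3 and 4 (0.92), and kept its direction. The other subunits of the complex, named after their values were seen, were at higher levels. Idh3b was at 150.2 ± 30.5, 191 ± 8.67 and 77.4 ± 7.85 TPM in the order neurons, astrocytes, microglia, its means in the same order of cell types as those of Idh3a, and was called between astrocytes and microglia (1.30, adjusted p = 1.01e-07, scaled 0.62 and not called). Idh3g was at 248 ± 51.4, 337 ± 23.4 and 269.8 ± 41.6 TPM and was called in no comparison.

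**Figure D3:**
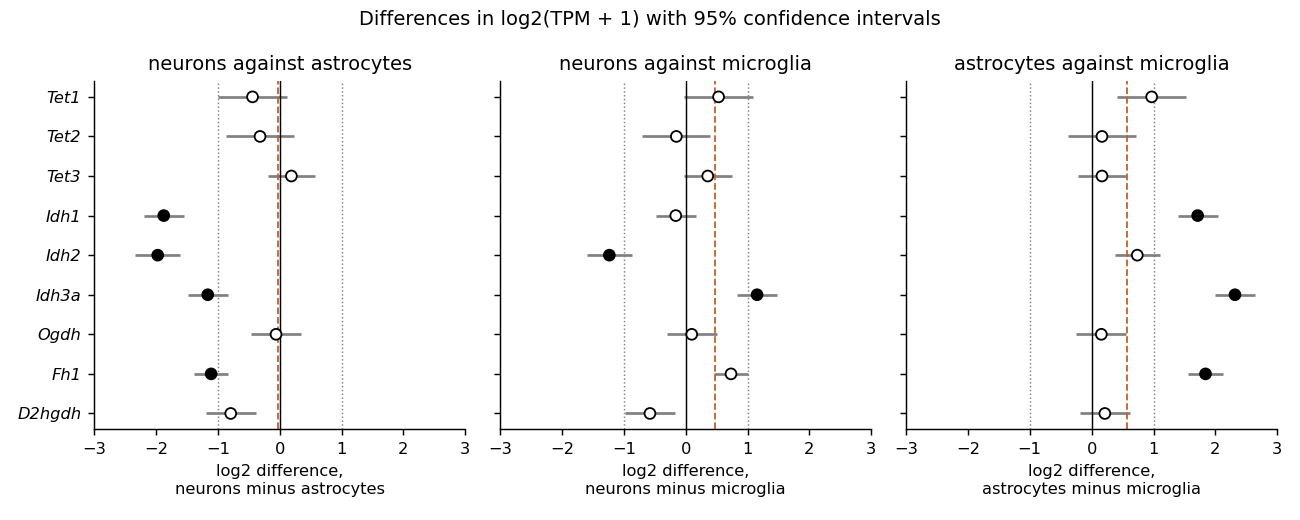
Differences in log2(TPM + 1) of the 9 genes in the 3 comparisons, with 95% intervals; filled points were called, dotted lines mark a log2 difference of 1 either way, and the dashed line is the median of all 13351 tested genes. Called are Idh1, Idh2, Idh3a and Fh1 (neurons against astrocytes), Idh2 and Idh3a in opposite directions (neurons against microglia), and Idh1, Idh3a and Fh1 (astrocytes against microglia); with median-of-ratios scaling the points of Tet2, Ogdh and D2hgdh for astrocytes minus microglia, those of Tet3 for both comparisons with microglia and that of Ogdh for both with neurons change sign.

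Ratios within a library, again free of its scaling and given with no test, separated the 3 cell types. Idh2 stood at 0.949 to 1.37 times Idh3a in neurons, 1.77 to 2.46 times in astrocytes and 3.98 to 8.21 times in microglia, with no overlap. Idh2 over Idh1 was 1.51 to 2.83 in neurons, 1.73 to 2.88 in astrocytes and 2.61 to 6.80 in microglia, where it overlapped both. The overlap came from microglia libraries 1 and 2 (2.61 and 2.63), those with the highest oligodendrocyte sums, and the others were at 5.23 to 6.80. Both also had the lowest Idh2 among microglia, and the part of oligodendrocytes in this was not tested. Of the summed TPM of Idh1, Idh2 and Idh3a (130.5 to 200.3 in neurons, 514 to 617 in astrocytes and 205 to 264 in microglia), Idh2 made up a median of 42.9%, 50.9% and 75.8%. Idh3a over Ogdh, a subunit each of the enzymes on either side of 2-oxoglutarate in the cycle, was 1.39 to 2.56 in neurons, 3.22 to 4.48 in astrocytes and 0.649 to 1.25 in microglia, also with no overlap. It does not stand for the whole Idh3 complex. Idh3g, unlike Idh3a, had a higher mean in microglia (269.8 TPM) than in neurons (248 TPM), and Idh3b a lower one (77.4 and 150.2 TPM). Fh1 over Idh3a overlapped between neurons (0.529 to 0.657) and astrocytes (0.487 to 0.662) and reached 0.634 to 0.986 in microglia.

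Other genes of 2-oxoglutarate supply (the other Idh3 subunits, aconitases, citrate synthase, glutamate dehydrogenase, glutaminases and transaminases) numbered 15, all tested. Between neurons and astrocytes 0 were called higher in neurons and 7 in astrocytes, between neurons and microglia 6 in neurons and 1 in microglia, and between astrocytes and microglia 9 in astrocytes and 0 in microglia. Their median differences were -0.87, 0.92 and 1.30, and 25.6%, 39.3% and 42.5% of all tested genes were called. Median-of-ratios scaling turned the list's counts against microglia to 2 in neurons and 2 in microglia, and 6 in astrocytes and 0 in microglia. Gpt, the cytosolic alanine transaminase, was at 1.81 ± 0.260, 62.6 ± 11.2 and 6.44 ± 2.22 TPM in the order neurons, astrocytes, microglia, the gene of the list with the largest difference (neurons minus astrocytes -4.49, adjusted p = 3.23e-12). Its mitochondrial form Gpt2 was at 6.87 ± 2.81, 32.3 ± 4.86 and 2.96 ± 0.729 TPM. Psat1, a transaminase of serine synthesis, was at 19.2 ± 5.02, 204 ± 18.6 and 38.6 ± 21.0 TPM. Citrate synthase (Cs) was at 37.3 ± 7.05, 143 ± 19.9 and 22.2 ± 0.585 TPM. All 4 were called higher in astrocytes than in both other cell types, on either scale, and Psat1 was called lower in neurons than microglia with scaling alone (from -0.83 to -1.42).

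Ogdh (ENSMUSG00000020456, chr11:6291633-6356642, plus strand), the first enzyme of the complex that turns 2-oxoglutarate into succinyl-CoA, overlapped between the 3 cell types. Neurons held 23.03, 29.37, 40.96, 45.34 and 27.38 TPM. In astrocytes it was at 28.35, 28.77, 47.34, 32.11 and 34.26 TPM. Microglia held 24.68, 26.67, 32.58, 38.68 and 29.25 TPM. All groups overlapped. Means were 33.2 ± 9.48 (neurons), 34.2 ± 7.76 (astrocytes) and 30.4 ± 5.51 TPM (microglia). For neurons minus astrocytes the log2 difference was -0.058 (95% interval -0.46 to 0.34, adjusted p = 0.813), neurons minus microglia 0.098 (-0.30 to 0.50, adjusted p = 0.663) and astrocytes minus microglia 0.16 (-0.25 to 0.56, adjusted p = 0.470), so a 2-fold difference lay outside each interval on the deposited scale. With median-of-ratios scaling the last 2 turned to -0.50 (adjusted p = 0.00410) and -0.51 (adjusted p = 0.00325), and the first to 0.014.

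Of 6 other genes of 2-oxoglutarate use and transport, 3 were called higher in astrocytes than neurons and 0 lower, 1 higher in neurons than microglia and 0 lower, and 4 higher in astrocytes than microglia and 0 lower, with median differences of -1.11, -0.086 and 1.65. Calls among all tested genes came to 25.6%, 39.3% and 42.5% in that order. After median-of-ratios scaling the calls of the 6 against microglia were 1 higher in neurons and 0 in microglia, and 3 higher in astrocytes and 0 in microglia. Ogdhl, the paralogue of Ogdh, was called in all 3 comparisons on both scales, at 3.81 ± 1.04, 10.9 ± 0.802 and 0.880 ± 0.453 TPM in the order neurons, astrocytes, microglia. Dhtkd1, the related dehydrogenase of 2-oxoadipate, was at 0.132 ± 0.0847, 3.06 ± 1.30 and 0.180 ± 0.147 TPM, and Slc25a21, a mitochondrial carrier of oxodicarboxylates, at 0.230 ± 0.149, 5.51 ± 1.14 and 0.412 ± 0.300 TPM, both called higher in astrocytes than in the others on both scales. Dld, the subunit shared with other dehydrogenase complexes, was at 34.2 ± 4.79, 63.6 ± 8.52 and 20.7 ± 1.07 TPM and was called between astrocytes and microglia (1.56), a call lost with scaling (0.90).

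Fh1 (ENSMUSG00000026526, chr1:175600374-175625635, minus strand), which turns fumarate into malate, followed the same order as Idh3a. Neurons held 35.4, 26.88, 38.12, 41.84 and 38.42 TPM. Astrocytes held 82.09, 72.39, 74.38, 77.64 and 85.12 TPM. In microglia it was at 22, 21.19, 21.24, 24.75 and 17.08 TPM. No group overlapped another. Means were 36.1 ± 5.65 (neurons), 78.3 ± 5.28 (astrocytes) and 21.3 ± 2.75 TPM (microglia). For astrocytes minus microglia the log2 difference was 1.84 ± 0.13 (SE, 3.58-fold higher, adjusted p = 7.68e-10), and 1.17 with median-of-ratios scaling, still called (adjusted p = 3.04e-07). Set against astrocytes, neurons differed by -1.11 ± 0.13 (2.15-fold lower, adjusted p = 1.53e-06), close to the 2-fold limit and under it with quantile normalization (-0.95) and without all libraries numbered 1 and 2 (-0.98). For neurons minus microglia the log2 difference was 0.73 ± 0.13 (adjusted p = 8.57e-05), not called, and 0.14 with median-of-ratios scaling (adjusted p = 0.321). Kmo, annotated across Fh1 on the opposite strand, was at most at 0.78 TPM in any library.

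The promoter sequences of Idh1 and Fh1 are shown because these genes were called higher in astrocytes than in both other cell types. They come from RefSeq's table (GRCm38.p6), which held 8 of the 9 genes, Idh3a being the other. Both run 5′ to 3′ on the minus strand and end at the last base before the gene, at chr1:65186501-65186729 for Idh1 and chr1:175625636-175625885 for Fh1. Capitals mark CCAAT, the letters bound by NF-Y, or its reverse complement ATTGG.
Idh1: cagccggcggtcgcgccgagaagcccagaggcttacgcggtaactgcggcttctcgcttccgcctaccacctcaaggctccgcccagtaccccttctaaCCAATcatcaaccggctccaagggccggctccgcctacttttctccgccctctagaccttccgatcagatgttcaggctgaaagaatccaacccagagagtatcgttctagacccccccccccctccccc
Fh1: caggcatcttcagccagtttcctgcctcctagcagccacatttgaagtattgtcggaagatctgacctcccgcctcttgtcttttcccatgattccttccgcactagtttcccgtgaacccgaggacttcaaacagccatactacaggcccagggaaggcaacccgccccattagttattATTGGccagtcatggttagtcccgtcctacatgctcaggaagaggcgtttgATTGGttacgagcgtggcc

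In the 250 bases before the RefSeq start, read on both strands, CCAAT was found in 5 of 8 promoters (Tet3, Idh1, Idh2, Ogdh and Fh1), against 33.8% of all 32851 promoters in the table. It lay 151 bases before the RefSeq start in Idh1, and 70 and 19 bases before it in Fh1. The Idh1 window (chr1:65186480-65186729) reaches into the gene span, so its 151 bases are not counted from the end of the sequence printed above. Of the 5 genes with these letters, Idh1, Idh2 and Fh1 were called in some comparison, and Ogdh and Tet3, whose window is at an internal start, in none. GGGCGG, the GC box, was in all 8 and in 32.7% of all promoters. The NRF1 motif (3.74% of all promoters), CCGGAAG (GABPA, 6.91%) and CACGTG (the E-box, 6.02%) were in none of the 8 windows, and TGACGTCA (CRE, 1.55%) was in that of Ogdh. CpG counts per window were 15 in Tet1, 51 in Tet2, 17 in Tet3, 18 in Idh1, 17 in Idh2, 21 in Ogdh and 10 in Fh1 and D2hgdh, against a median of 6 over all promoters, and the Tet2 count was above that of 99.9% of them. The windows of Tet1, Tet2, Tet3 and D2hgdh lay wholly inside the annotated gene spans, at RefSeq starts within the gene. Those of Tet1 (chr10:62887325-62887574) and Tet3 (chr6:83441679-83441928) were far from the 5′ ends of the spans, at 62908996 and 83459084. Their letters and CpG counts are thus of internal starts. These matches describe letters in a window and were not tested against the levels.

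Of 10 genes of the succinate, fumarate and malate steps beside Fh1, 2 were called higher in astrocytes than neurons and 0 lower, 3 higher in neurons than microglia and 0 lower, and 7 higher in astrocytes than microglia and 0 lower, with median differences of -0.53, 0.53 and 1.28. The shares called among all tested genes were 25.6%, 39.3% and 42.5% in the same order. Scaled by median of ratios, the calls of the 10 against microglia were 0 higher in neurons and 1 in microglia, and 1 higher in astrocytes and 0 in microglia. Suclg1, the subunit common to both succinate-CoA ligases, was at 134 ± 28.7, 373 ± 14.1 and 89.9 ± 4.29 TPM in the order neurons, astrocytes, microglia, called higher in astrocytes than in both others on either scale. Its partner Suclg2 was at 10.7 ± 3.75, 36.2 ± 2.61 and 20.9 ± 4.22 TPM, called higher in astrocytes than neurons (neurons minus astrocytes -1.72) and, with scaling alone, higher in microglia than neurons (neurons minus microglia from -0.94 to -1.53). The alternative partner Sucla2 was at 75.8 ± 13.1, 96.7 ± 8.63 and 35.7 ± 5.26 TPM, called higher in neurons (1.06) and astrocytes (1.42) than in microglia, calls lost with scaling (0.46 and 0.74). Mdh1, the cytosolic malate dehydrogenase, was at 582 ± 156, 679 ± 36.9 and 259 ± 13.9 TPM, with calls in the same 2 comparisons (1.12 and 1.39), both lost likewise (0.51 and 0.70).

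D2hgdh (ENSMUSG00000073609, chr1:93824909-93852348, plus strand), the mitochondrial enzyme that returns D-2-hydroxyglutarate to 2-oxoglutarate, had its lowest mean in neurons. It was at 3.81, 4.82, 3.64, 3.55 and 2.71 TPM in neurons. Astrocytes held 6.75, 7.41, 8.42, 7.59 and 5.44 TPM. Microglia held 4.01, 6.71, 4.55, 8.97 and 6.58 TPM. Neurons did not overlap astrocytes, and microglia overlapped both. Means were 3.71 ± 0.754 (neurons), 7.12 ± 1.11 (astrocytes) and 6.16 ± 1.97 TPM (microglia). Neurons minus astrocytes was -0.79 ± 0.19 (SE, adjusted p = 0.00217), under the 2-fold limit. Set against microglia, neurons differed by -0.58 ± 0.19 (adjusted p = 0.0134), and with median-of-ratios scaling it passed the limit, at -1.09 (adjusted p = 0.000128). Set against microglia, astrocytes differed by 0.21 (95% interval -0.19 to 0.62, adjusted p = 0.328) and turned to -0.38 with that scaling.

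Of 5 other genes whose enzymes can form 2-hydroxyglutarate, 5 were called higher in astrocytes than microglia, 2 higher in astrocytes than neurons and 0 lower, and 3 higher in neurons than microglia and 1 lower, with median differences of -0.26, 1.12 and 1.39. In the order of these medians, 25.6%, 39.3% and 42.5% of all tested genes were called. Under median-of-ratios scaling the calls of the 5 against microglia were 1 higher in neurons and 1 in microglia, and 2 higher in astrocytes and 0 in microglia. Mdh1, given above, is also of this list. Adhfe1, which forms D-2-hydroxyglutarate from 2-oxoglutarate, was at 4.02 ± 1.45, 124 ± 11.2 and 4.07 ± 1.62 TPM in the order neurons, astrocytes, microglia (astrocytes minus microglia 4.69, adjusted p = 5.17e-12). Phgdh, an enzyme of serine synthesis that can also form it, was at 19.8 ± 4.57, 590.5 ± 45.9 and 108 ± 12.8 TPM and was called in all 3 comparisons, and both genes kept their calls with scaling. Ldha, a lactate dehydrogenase that can form the L form, had its highest mean in neurons, at 773 ± 73.3, 618 ± 87.5 and 246 ± 23.4 TPM, and was called higher in neurons (1.65) and astrocytes (1.32) than in microglia, the second call being lost with scaling (0.63).

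**Figure D4:**
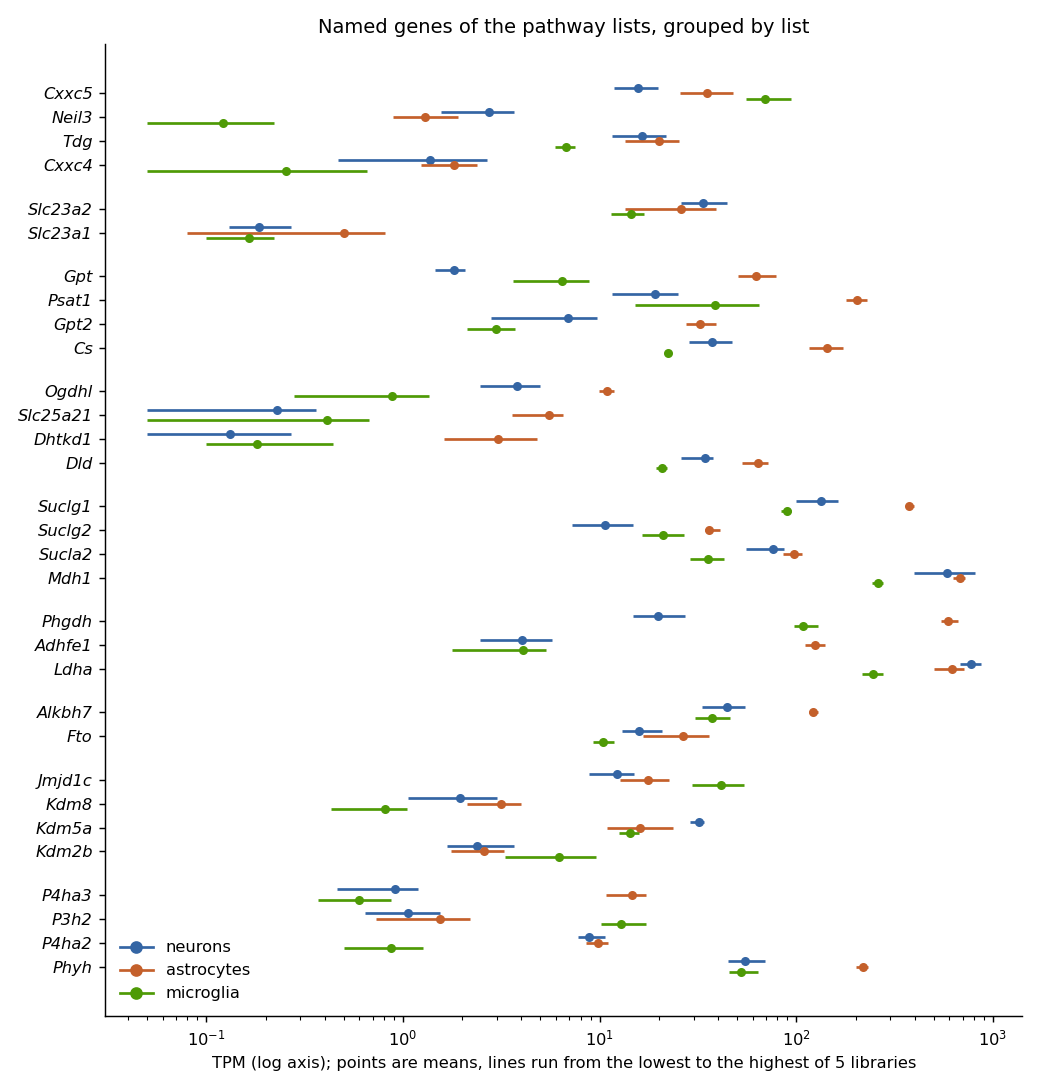
TPM (log axis) of the named genes of each list in neurons, astrocytes and microglia; points are means and lines run from the lowest to the highest of 5 libraries, with values under 0.05 TPM drawn at 0.05. Gpt, Psat1, Cs, Ogdhl, Adhfe1 and Phgdh have their highest mean in astrocytes, Cxxc5, Jmjd1c, Kdm2b and P3h2 in microglia, and Kdm5a, Neil3 and Ldha in neurons.

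Other dioxygenases that use 2-oxoglutarate were counted by family, and no test compared the families. Among all tested genes 25.6%, 39.3% and 42.5% were called in the 3 comparisons. Of 9 relatives acting mostly on DNA and RNA, all tested, 1 was called higher in astrocytes than neurons, 2 higher in astrocytes than microglia and none in the other directions (medians -0.28, 0.46 and 0.38). Between neurons and microglia, where none was called, 4 of the 9 had an unadjusted p below 0.05 in limma. An adjusted p below 0.05 was also reached by 4, all under the 2-fold limit. The called genes were Alkbh7, a mitochondrial member, at 44.4 ± 9.15, 122 ± 5.11 and 37.1 ± 6.47 TPM in the order neurons, astrocytes, microglia, and Fto, a demethylase of RNA, at 15.9 ± 3.05, 26.4 ± 7.24 and 10.3 ± 1.11 TPM (astrocytes minus microglia 1.24, scaled 0.59 and not called). With scaling the calls of these 9 against microglia were 0 higher in neurons and 1 in microglia, and 1 higher in astrocytes and 1 in microglia. Of 21 JmjC histone demethylases and relatives, 19 were tested (medians -0.057, 0.27 and 0.079). Between neurons and astrocytes 0 of them were called. There 6 had an unadjusted and 5 an adjusted p below 0.05 in limma, all under the 2-fold limit. Against microglia 1 was called higher in neurons and 2 in microglia, and 1 higher in astrocytes and 1 in microglia. Their calls against microglia became, with scaling, 0 higher in neurons and 4 in microglia, and 0 higher in astrocytes and 5 in microglia. Jmjd1c was called higher in microglia than in both others, at 12.2 ± 3.14, 17.5 ± 4.03 and 41.5 ± 11.2 TPM, and Kdm2b than in neurons, at 2.39 ± 0.758, 2.57 ± 0.628 and 6.19 ± 2.40, and with scaling also than in astrocytes (astrocytes minus microglia from -0.96 to -1.52). Kdm5a, a demethylase of histone H3 lysine 4, was called higher in neurons than microglia, at 32.1 ± 2.04, 16.1 ± 4.79 and 14.2 ± 1.40 TPM. With scaling that call was lost (1.12 to 0.54) and one between neurons and astrocytes was gained (0.99 to 1.06). Kdm8 was called higher in astrocytes than microglia, at 1.95 ± 0.793, 3.14 ± 0.741 and 0.808 ± 0.241 TPM (1.19, scaled 0.79 and not called). Of 15 oxygen-sensing, collagen and other hydroxylases, 4 were called higher in astrocytes than neurons and 0 lower, 5 higher in neurons than microglia and 4 lower, and 7 higher in astrocytes than microglia and 2 lower (medians -0.29, 0.25 and 0.82). Scaled, those against microglia were 3 higher in neurons and 5 in microglia, and 5 higher in astrocytes and 3 in microglia, and the calls of the 4 genes that follow were kept. The collagen prolyl hydroxylase subunit P4ha3 was highest in astrocytes (0.914 ± 0.286, 14.5 ± 3.01 and 0.6 ± 0.215 TPM) and P4ha2 lowest in microglia (8.86 ± 1.22, 9.76 ± 1.23 and 0.870 ± 0.288). P3h2, a prolyl 3-hydroxylase of collagen, was called higher in microglia than in both others (1.06 ± 0.337, 1.54 ± 0.527 and 12.8 ± 3.07 TPM). Phyh, the peroxisomal hydroxylase of phytanoyl-CoA, was called higher in astrocytes than in both (54.6 ± 10.9, 217 ± 12.9 and 52.3 ± 7.58 TPM).

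Over these lists together, 90 distinct genes beside the 9 were tested. Between neurons and astrocytes 0 were called higher in neurons and 20 in astrocytes (22.2% called), between neurons and microglia 20 and 9 (32.2%), and between astrocytes and microglia 38 and 3 (45.6%). Under median-of-ratios scaling these became 2 and 19, 8 and 15, and 18 and 10, in the same order of comparisons and directions, and with a pseudocount of 0.1 those between neurons and astrocytes were 6 and 20. The corresponding shares of all tested genes were 25.6%, 39.3% and 42.5%. The lists' median differences were -0.34, 0.41 and 0.78.

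Libraries of the same number shared part of their levels across cell types. Libraries 3 and 4 were both above libraries 1 and 2 for 63.7% of all tested genes in neurons, 61.4% in astrocytes and 42.6% in microglia. Both were below for 8.44%, 9.28% and 21.5%. Tet2 and Ogdh followed the former in all 3 cell types, with means of libraries 3 and 4 over those of 1 and 2 of 1.82, 1.67 and 1.498 for Tet2 and 1.65, 1.39 and 1.39 for Ogdh in neurons, astrocytes and microglia. Tet1 did so only in astrocytes (2.98, against 0.851 and 1.07). Idh1 went opposite ways in astrocytes (1.358) and microglia (0.656), as did Idh3a (1.197 and 0.819). Oligodendrocyte marker sums were higher in libraries 1 and 2 than in 3 and 4 in every cell type, at 8373 and 10275 against 119 and 151 TPM in neurons and 1102 and 3792 against 614 and 432 TPM in astrocytes. The labels do not say what the numbers mark, and the part of these sums in the pattern was not tested.

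For each gene the 3 other tested genes with the most similar pattern over the 15 libraries were found, as the smallest root-mean-square difference of log2(TPM + 1) after each gene's own mean was subtracted, given in parentheses for the nearest. The median of that measure over all other tested genes ran from 0.570 for Tet3 to 1.04 for Idh2. A gene at a constant level would score lower than that median for most of the 9, from 0.278 for Tet3 to 0.970 for Idh3a. For Tet2, D2hgdh and Tet1 it would score 0.422, 0.424 and 0.567. Nearest to Tet1 were Stk40 (0.249), Khsrp and Dgkq. To Tet2 they were Smyd4 (0.217), Fat3 and Cwf19l2, and to Tet3 Tubgcp6 (0.112), Mospd2 and Phip. Idh1 was nearest to Clmn (0.175), Megf10 and Trp63, and Idh2 to Bmyc (0.143), Pts and Suclg2. Those near Idh1 were far lower genes, with astrocyte means of 4.44, 4.02 and 2.35 TPM against 133 for Idh1. In neurons and microglia they averaged at most 0.79 TPM, where log2(TPM + 1) understates fold changes, so their fold changes are not those of Idh1. For Idh3a they were Sod2 (0.123), E2f6 and Porcn, and for Fh1 Ptdss2 (0.163), Rom1 and Chchd3. Of the 3 nearest to Ogdh, the first was Psen2 (0.0888) and the third Prmt7, and those nearest to D2hgdh were Tmem106c (0.231), Nudt6 and Nhej1.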

How the data were processed

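The values were TPM per gene for 15 libraries, deposited by the authors. Per the submitters' processing notes, the tools were DESeq2 1.36.0, RSEM 1.2.28, STAR 2.7.1a and Trim Galore 0.6.4, and the build was mm10. Per the labels, libraries were read on a NovaSeq in pairs of 150 nt, with 30000000 reads on average. The strand setting is not given in the sources used here, so reads of Tet2, Tet3 and Fh1 cannot be told apart from those of genes annotated on the opposite strand. Gene coordinates are from GENCODE vM21.

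The test was limma 3.58.1 (R 4.3.3) on log2(TPM + 1), with 1 mean for each cell type, all 15 libraries in a single fit, and moderated variances that follow a trend on expression. It ran on 13351 genes (1 TPM or more in 5 or more libraries), with Benjamini-Hochberg adjustment over them. The script was tested on simulated data. Tables and figures used Python 3.11.15, numpy 2.4.6, pandas 2.3.3 and matplotlib 3.10.9. All 9 genes are named. Of each list, up to 4 genes with the largest difference among those called are named, or both in a list of 2, and for each of the 9 the 3 genes nearest in pattern. Idh3b and Idh3g were named after their values were seen. A gene of the lists and a gene near in pattern to Ogdh are not reported here, and the former is in no count of the lists. The 9 genes and the lists were chosen with earlier results of these data known.

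Libraries with the same number were compared after group means were removed. Their correlations were 0.216 to 0.382 between neurons and microglia, where all 5 exceeded 0.1 and the numbers were taken to pair the libraries, from the data and not from the labels. The main fit has no term for the number, so its p-values and intervals are unpaired, and the pairing enters only the block on the replicate number. The correlations were -0.0329 to 0.233 between neurons and astrocytes and -0.0110 to 0.249 between astrocytes and microglia, with 3 of 5 above 0.1 in each. The alternatives tried were libraries left out, a block on the replicate number, quantile normalization, median-of-ratios scaling, filters of 0 and 5 TPM, a pseudocount of 0.1, fits of 2 cell types and variances with no trend.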

Additional observations from a re-analysis of the deposited data

Results flagged for a closer look

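Of 27 groups of 5 libraries (9 genes in 3 cell types), 2 had a library far from the others by Dixon's test, which chance does in about 1 in 20 groups. Tet1 in microglia library 4, at 3.49 TPM, was the highest of its group, whose other libraries ranged from 2.92 to 3.07 TPM. Idh3a in microglia library 2, at 33.44 TPM, was the highest of its group, whose other libraries ranged from 24.24 to 26.81 TPM, and this library also had a mature oligodendrocyte marker sum of 51375 TPM, whose part was not tested.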

How the results depend on the processing

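Each called gene among the 9 was counted once in each refit of its comparison. The call was kept in 82 of 84 such pairs of gene and refit for neurons against astrocytes. It was kept in 39 of 42 for neurons against microglia and 63 of 63 for astrocytes against microglia. None of these genes changed direction in these refits. The number called between neurons and microglia fell from 2 to 1 without all libraries numbered 3 and 4. Leaving out 1 library at a time always gave 4 and 2 in the first 2 comparisons and 3 to 4 in the third among the 9, and 3323 to 3512, 5103 to 5410 and 5522 to 5841 among all. With the replicate block 4, 2 and 3 of the 9 were called, and the block changed no call among them (Idh2, neurons minus microglia, adjusted p = 5.26e-06).

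Differences that turned were all of genes not called. With median-of-ratios scaling and quantile normalization in turn, neurons minus microglia became -0.50 and -0.22 for Ogdh and -0.16 and -0.16 for Tet3, and with the latter -0.015 for Tet1. Astrocytes minus microglia became -0.51 and -0.32 for Ogdh, -0.45 and -0.36 for Tet2, -0.41 and -0.41 for Tet3 and -0.38 and -0.33 for D2hgdh. Neurons minus astrocytes became 0.014 and 0.098 for Ogdh. With both scalings the 2 genes called between neurons and microglia were Idh2 and D2hgdh, both higher in microglia. Without microglia libraries 1 and 2, neurons minus microglia was 0.064 for Idh1 and -0.047 for Ogdh. Without all libraries numbered 1 and 2 it was 0.059 for Idh1 and 0.039 for Tet2. Without those numbered 3 and 4 it was -0.018 for Ogdh, and neurons minus astrocytes was 0.063 for Tet1. Leaving out 1 library moved Ogdh over -0.18 to 0.063 (neurons minus astrocytes) and -0.022 to 0.21 (neurons minus microglia), and Tet2 over -0.29 to 0.0069 (neurons minus microglia). The causes were not tested. The counts over the lists and the scaled values of their genes were added after the data were seen, and depth per library cannot be read from TPM, so its effect on the low Tet genes and D2hgdh was not measured.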
